A study of Mus musculus with 13 samples.

Results

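The cohesin subunits STAG2 and STAG1 were compared by chromatin immunoprecipitation and sequencing in quiescent NU1 cells, with 2 peak lists for STAG2 and 2 for STAG1, which are 4 of the 12 peak lists of the study. NU1 is a mouse urothelial line that became immortal by passaging, labelled WT, so both groups come from 1 line and 1 genotype. Quiescence had been induced by confluence and then by complete medium with rosiglitazone at 1 uM, an activator of PPAR gamma, together with erlotinib at 0.5 uM, which blocks the kinase of the EGF receptor. Each precipitation used 25 ug of an antibody to STAG2 or to STAG1, and the p-values below measure the spread between these libraries. The lists of CTCF in quiescent cells, and of both STAG proteins in proliferating NU1 cells without the drugs, were used only as further readouts of the same sites. Each protein was read with its own antibody, so a difference between proteins and a difference between antibodies cannot be told apart.

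Cohesin is a ring complex that encloses DNA, holds sister chromatids together and extrudes chromatin loops. Each ring carries either STAG1 or STAG2, and loop extrusion often stops where the zinc finger protein CTCF is bound. STAG2 is a tumour suppressor that is often inactivated in bladder cancer, and the study asks how it acts with DREAM, a complex of MuvB, E2F and retinoblastoma-like proteins that represses cell cycle genes in quiescent cells.

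Matching peaks, those that shared at least 1 bp, were joined into 51040 sites over the 4 lists. Of these, 23717 sites (46.5%) were called in all 4 libraries and are named shared. Another 2407 (4.72%) were called in both STAG2 libraries and neither STAG1 library and are named STAG2-specific. The reverse held for 2092 (4.1%), named STAG1-specific. A site without a call fell below the authors' peak threshold and may still hold the protein. When any 1 of the 4 libraries was left out, which asks for fewer calls, the specific sites numbered 3941 to 7390 for STAG2 and 2952 to 6108 for STAG1. The remaining 22824 sites were called in 1 library (14310), in 3 libraries (5867) or in 1 library of each protein (2647). A gene end is a stretch of 1 kb on either side of a start or an end of a protein-coding gene. An annotated start is the start of the transcript for the genes that have a promoter entry in RefSeq, which is 79.9% of them.

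The promoter sequences of 7 genes are shown as examples of starts in the site classes. They are RefSeq sequences of GRCm38.p6, the same assembly as mm10, from 250 bases before to 50 bases after an annotated start, on the strand of the gene. Gcdh holds the STAG2-specific site of highest rank, with the letters CCAAT in capitals. These letters were in 38.3% of promoters with a STAG2-specific site and in 38.2% of all promoters. E2f2 has an E2F string in capitals, and Ccnb2 and Racgap1, which are genes of mitosis, have the CHR string TTTGAA in capitals, found at 2 places in Ccnb2. U2af1l4 holds the STAG1-specific gene-end site of highest rank and has none of the searched strings. Scn2a, a STAG1-specific start, and Rab32, a shared start, have a core of the CTCF motif in capitals, read on the opposite strand in Scn2a.
Gcdh, chr8:84893872-84894171, minus strand: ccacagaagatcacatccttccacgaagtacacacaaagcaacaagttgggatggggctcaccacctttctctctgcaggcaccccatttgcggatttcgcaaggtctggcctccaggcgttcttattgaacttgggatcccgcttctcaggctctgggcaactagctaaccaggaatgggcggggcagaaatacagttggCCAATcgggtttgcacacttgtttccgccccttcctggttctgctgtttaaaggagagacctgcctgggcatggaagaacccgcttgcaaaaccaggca
E2f2, chr4:136172024-136172323, plus strand: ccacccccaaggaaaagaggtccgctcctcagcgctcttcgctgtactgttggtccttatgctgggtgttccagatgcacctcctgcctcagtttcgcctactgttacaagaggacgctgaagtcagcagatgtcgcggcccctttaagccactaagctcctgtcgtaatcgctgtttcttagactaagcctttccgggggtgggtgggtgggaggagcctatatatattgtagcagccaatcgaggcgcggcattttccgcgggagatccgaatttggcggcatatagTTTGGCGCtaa
Ccnb2, chr9:70421505-70421804, minus strand: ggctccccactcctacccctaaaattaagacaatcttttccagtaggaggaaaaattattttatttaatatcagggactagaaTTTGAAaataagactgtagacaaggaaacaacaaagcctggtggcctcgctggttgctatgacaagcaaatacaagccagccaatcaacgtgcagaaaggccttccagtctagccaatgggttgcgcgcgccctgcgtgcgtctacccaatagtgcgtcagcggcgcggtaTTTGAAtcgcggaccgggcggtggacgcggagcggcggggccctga
Racgap1, chr15:99651607-99651906, minus strand: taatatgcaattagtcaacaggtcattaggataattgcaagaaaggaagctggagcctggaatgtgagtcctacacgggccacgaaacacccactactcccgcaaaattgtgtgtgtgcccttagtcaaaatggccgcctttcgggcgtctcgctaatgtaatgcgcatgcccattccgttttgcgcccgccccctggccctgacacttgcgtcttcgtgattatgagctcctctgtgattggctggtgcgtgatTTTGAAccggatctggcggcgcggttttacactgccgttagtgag
U2af1l4, chr7:30563090-30563389, plus strand: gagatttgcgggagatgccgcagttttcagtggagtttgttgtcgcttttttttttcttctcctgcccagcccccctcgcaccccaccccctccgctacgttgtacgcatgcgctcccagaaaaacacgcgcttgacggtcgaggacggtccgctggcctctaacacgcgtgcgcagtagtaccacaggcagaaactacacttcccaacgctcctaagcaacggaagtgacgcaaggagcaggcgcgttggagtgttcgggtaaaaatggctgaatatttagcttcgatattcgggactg
Scn2a, chr2:65668436-65668735, plus strand: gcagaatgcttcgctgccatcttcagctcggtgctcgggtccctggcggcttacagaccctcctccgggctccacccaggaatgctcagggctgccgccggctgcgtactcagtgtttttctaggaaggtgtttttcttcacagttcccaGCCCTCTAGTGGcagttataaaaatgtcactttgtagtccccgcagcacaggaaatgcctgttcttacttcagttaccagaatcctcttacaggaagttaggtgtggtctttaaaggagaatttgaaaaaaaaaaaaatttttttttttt
Rab32, chr10:10558158-10558457, minus strand: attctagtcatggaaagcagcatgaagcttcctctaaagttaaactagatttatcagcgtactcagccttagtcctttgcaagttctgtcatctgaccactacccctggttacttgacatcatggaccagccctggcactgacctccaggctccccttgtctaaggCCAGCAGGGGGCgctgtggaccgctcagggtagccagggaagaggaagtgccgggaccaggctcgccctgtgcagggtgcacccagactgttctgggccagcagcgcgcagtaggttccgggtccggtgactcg

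STAG2 and STAG1 occupied largely the same places. STAG2 had 38407 and 34281 peaks in its replicates, and STAG1 had 35594 and 36680. The counts of the groups overlapped, and the lists hold no read totals, so the depth behind each is not given in the sources used here. Of the STAG2 peaks, 66.7% and 73.0% matched a peak in both STAG1 libraries, and of the STAG1 peaks 73.6% and 72.3% matched both STAG2 libraries. The Jaccard index of a pair of lists (bases in both divided by bases in either) was 0.685 between the STAG2 replicates and 0.641 between the STAG1 replicates. Between a STAG2 and a STAG1 list it lay from 0.586 to 0.614, below both values within a protein. At the 21616 shared sites with 1 peak in each library, the median distance between summits was 28 bp within each protein and 29 or 30 bp between proteins. Summits lay within 50 bp of each other at 69.0% and 67.3% of these sites within STAG2 and within STAG1, and at 66.1% to 66.3% between them.

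The shared sites of highest fold enrichment were near the top of all 4 lists. The authors' fold enrichment was used here as a rank within a list, given as a percentile where 100 is the strongest peak. The site 5137 bp from an end of Mecom, a zinc finger gene, on chromosome 3 from 30514178 to 30515613, had folds of 103 and 68.9 in the STAG2 replicates and 89.3 and 94.8 in the STAG1 replicates. At an end of Cdkn2aipnl the folds were 106 and 72.2 for STAG2 and 86.5 and 87.0 for STAG1. All 10 sites of this kind had CTCF in both quiescent CTCF libraries and percentiles of at least 99.77 in every library, and 3 of the 10 were at a gene end. The others at gene ends were at Garem1 and Lratd1, and the rest lay nearest to Skida1, Sp8, Foxj1, Mab21l3, Cd83 and Irx1, the last of them 499400 bp away.

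The sites of each protein alone lay in different parts of the genome. STAG2-specific sites were at gene ends in 32.0% of cases and at annotated starts in 26.8%, against 6.50% and 2.68% of STAG1-specific sites and 40.7% and 32.9% of shared sites. Over all sites the shares were 28.6% and 22.2%, so STAG2-specific sites lay near them and STAG1-specific sites far below. The median distance to the nearest gene end was 6136 bp for STAG2-specific, 17005 bp for STAG1-specific and 3390 bp for shared sites. Genes were overlapped by 66.5%, 48.9% and 69.8% of the 3 classes in that order, and 13.9%, 25.2% and 11.0% lay over 50 kb from any gene end. Median widths were 530 bp, 471 bp and 775 bp, where a shared site is the union of 4 peaks. The median distance to the nearest shared site was 13479 bp for STAG2-specific and 19290 bp for STAG1-specific sites. Joined sites cannot overlap each other, so a distance above 0 is fixed by the method, and no random positions were compared.

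CTCF divided the classes the other way. Of the STAG1-specific sites, 61.1% had CTCF in both quiescent libraries, and 355 sites had it in neither. Of the STAG2-specific sites, 20.1% had it in both and 62.4%, which is 1502 sites, in neither. Shared sites had CTCF in both libraries in 84.0% and in neither in 7.71%. Over all sites it was in both in 56.2% and in neither in 31.7%. STAG1-specific sites thus lay near all sites for CTCF in both libraries, and STAG2-specific sites far below. Starts without any CTCF call made up 13.4% of the STAG2-specific, 1.15% of the STAG1-specific and 2.52% of the shared sites. Where a specific site did match CTCF peaks, the CTCF peak had a median percentile of 32.1 and 33.2 in the CTCF replicates at STAG2-specific sites, 50.7 and 65.6 at STAG1-specific sites, and 76.2 and 80.1 at shared sites.

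**Figure D1:**
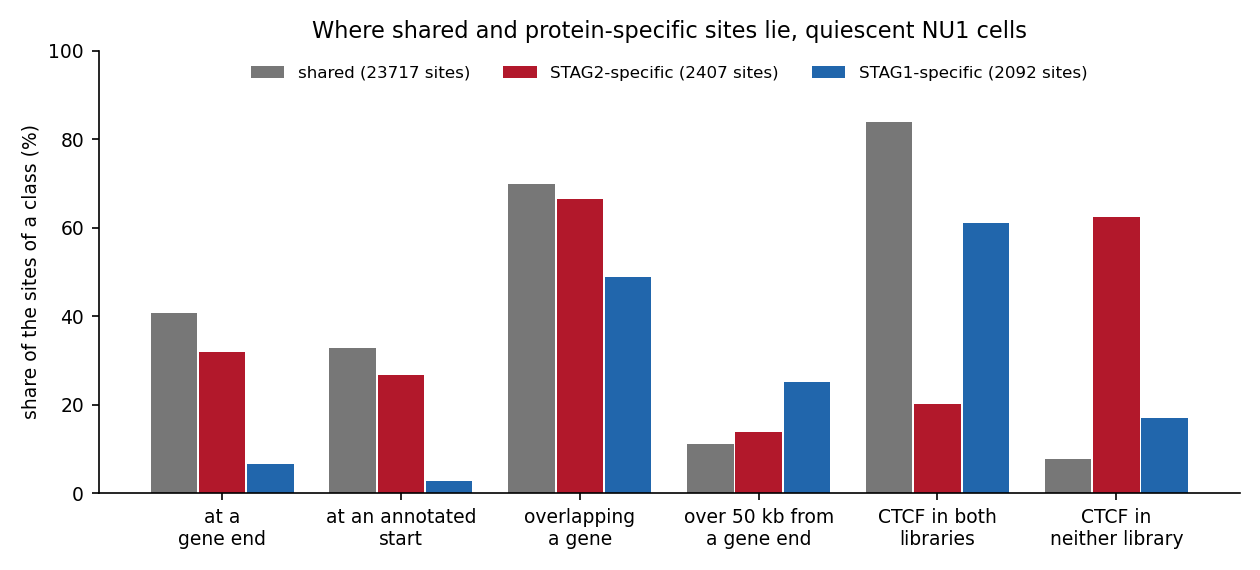
Share of the sites of each class (vertical axis, %) with each annotation (horizontal axis) in quiescent cells; grey bars are shared, red bars STAG2-specific and blue bars STAG1-specific sites. Red bars stand at 32.0% at gene ends and 20.1% with CTCF in both libraries, and blue bars at 6.50% and 61.1%.

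Specific sites were weaker than shared ones within their own lists. Their median percentiles were 25.9 and 20.9 in the STAG2 replicates for STAG2-specific sites and 36.8 and 38.7 in the STAG1 replicates for STAG1-specific sites, against 64.4 to 68.5 for shared sites. The contrast between classes was therefore read at matched percentiles. All sites were put into 4 percentile bands of equal width. In the lowest band, annotated starts were 25.2% of STAG2-specific, 5.10% of STAG1-specific and 41.6% of shared sites. CTCF was called in both libraries at 16.1%, 47.6% and 47.9% of them. In the next band the starts were 27.0%, 2.24% and 39.4%, and CTCF was called in both libraries at 24.3%, 62.1% and 67.8%. In these lower bands STAG1-specific sites were thus close to shared sites in CTCF and far from them at starts. STAG2-specific sites were nearer to shared sites at starts and far from them in CTCF. In the third band the starts were 34.7%, 0.998% and 35.1%, and CTCF was called in both libraries at 27.8%, 71.1% and 87.5%. There, and in the highest band (82.8% against 99.1%), STAG1-specific sites also lay below shared sites in CTCF. The highest band held only 19 STAG2-specific and 29 STAG1-specific sites, of which 63.2% and 6.90% were at gene ends.

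Every library showed the contrast when its peaks were split by the other protein. STAG2 replicates had 7390 and 4626 peaks that matched no STAG1 peak, and STAG1 replicates had 5560 and 6108 that matched no STAG2 peak. CTCF in both libraries was found at 16.2% and 16.7% of these STAG2 peaks and at 40.9% and 38.6% of these STAG1 peaks. Both STAG2 libraries lay below both STAG1 libraries. The difference was -23.3 percentage points, 16.4% ± 0.332 against 39.8% ± 1.67 (SD, n = 2 each; exact permutation p = 0.333, two-sided, the smallest that 2 against 2 can give, so no such comparison could reach 0.05). Without STAG1 replicate 1 it was -15.6 points.

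Gene ends showed the opposite order, with 22.7% and 24.7% of the STAG2 peaks without STAG1 against 8.71% and 8.94% of the STAG1 peaks without STAG2. At annotated starts the shares were 17.3% and 20.2% against 4.28% and 4.22%. For gene ends this was a difference of 14.9 points, and the groups did not overlap (exact permutation p = 0.333). It was 44.3 points with the 20000 strongest peaks of each list and 9.01 points where peaks had to share 50% of their length. Peaks that did match the other protein were alike, with gene ends at 38.6% and 39.2% for STAG2 and 40.5% and 40.4% for STAG1. Over all peaks, gene ends held 34.8% and 36.6% of STAG2 and 32.9% and 32.4% of STAG1 peaks, and CTCF in both libraries 63.6% and 67.7% against 71.3% and 69.6% (exact permutation p = 0.333 for each). The gene-end difference over all peaks was 3.01 points, and 10.07 points with the 20000 strongest peaks of each list.

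In proliferating cells the same split gave gene-end shares that overlapped between the proteins, while both STAG2 libraries stayed below both STAG1 libraries in CTCF and above them at annotated starts. Of the peaks without the other protein, 10.1% and 11.6% for STAG2 and 7.77% and 12.5% for STAG1 were at gene ends, and 16.7% and 9.40% against 41.9% and 19.0% had CTCF in both proliferating CTCF libraries. Annotated starts held 6.51% and 6.93% against 3.49% and 6.06%. STAG1 proliferating replicate 2, with 50468 peaks, had 11014 peaks without STAG2, against 4245 in replicate 1. The difference between the states was not tested.

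**Figure D2:**
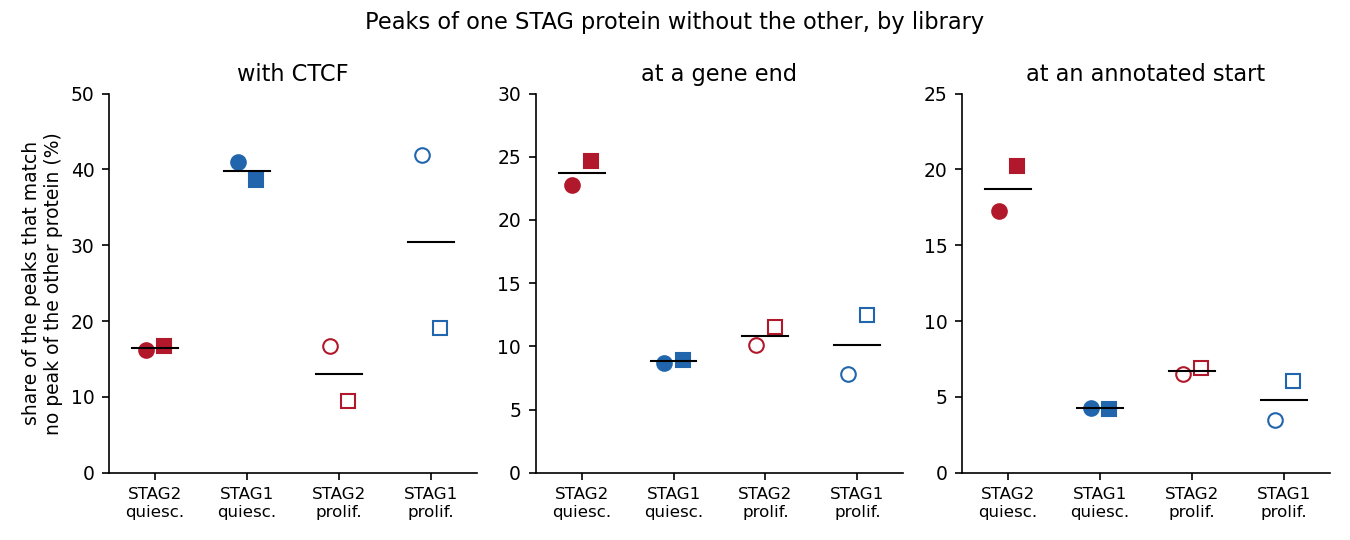
Peaks of 1 STAG protein that match no peak of the other, by library: the share (vertical axis, %) with CTCF, at a gene end and at an annotated start. Circles are replicate 1, squares replicate 2, filled marks quiescent and open marks proliferating cells, and lines the means of 2 libraries. In quiescent cells the STAG2 marks stand at 16.2% and 16.7% with CTCF and the STAG1 marks at 40.9% and 38.6%.

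The strongest STAG2-specific sites were at gene starts. Of the 10 with the highest mean percentile, 9 were at an annotated start and 6 at the outer end of a gene model, and 2 had CTCF in both libraries. The highest was at the start of Gcdh, the glutaryl-CoA dehydrogenase of lysine breakdown, on chromosome 8 from 84893451 to 84894212, with folds of 52.6 and 43.1, percentiles of 97.9 and 97.4 and no CTCF. The one at Szrd1, on chromosome 4 from 141138642 to 141139925, had folds of 40.3 and 44.2 and CTCF in both libraries. At Dmac2, which encodes an assembly factor of respiratory complex I, they were 37.4 and 36.9 without CTCF. These peaks had percentiles of at least 93.7 in both STAG2 lists. Neither quiescent STAG1 library had a peak there, as the class requires, but proliferating STAG1 replicate 2 had one at each. Of the 10 highest sites, 4 were called by both proliferating STAG1 libraries and 2 by neither.

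The others of the 10, and further gene-end sites, had lower mean percentiles. Lipe encodes hormone-sensitive lipase, and a start within it had folds of 41.9 and 25.7. Pisd, phosphatidylserine decarboxylase, had 27.6 and 42.7 at a start. An end of Porcn, the acyltransferase that modifies Wnt ligands, had 43.9 and 29.4 on the X chromosome. The shared end of Daxx, a chaperone gene for histone H3.3, and Zbtb22 had 30.3 and 28.8, and a start of Cyp1a1, a cytochrome P450 induced through the aryl hydrocarbon receptor, had 22.4 and 28.4. A start of Tmem39b had 26.3 and 23.3, and the start of Hexim1, which encodes a protein that holds the elongation kinase P-TEFb inactive, had 29.2 and 19.5. Further gene-end sites were at Pias4, a SUMO ligase gene, at Inpp5j and at Wrap73. Of the 10 highest gene-end sites, 8 had no CTCF in either quiescent library.

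The strongest STAG1-specific sites were mostly away from gene ends and on CTCF. Of the 10 highest, 1 was at a gene end and 8 had CTCF in both libraries. The highest lay inside Gabra5, a subunit gene of the GABA-A receptor, 66640 bp from the gene's nearer end, on chromosome 7 from 57474009 to 57474608. Its folds were 31.9 and 33.9, with percentiles of 91.3 in both STAG1 lists. Both proliferating STAG2 libraries had a peak there, as they had at 5 of the 10 highest sites, and neither had one at 2 of the 10. Sites in Mbp, Myo5b, Rad9b and Ap1b1, and sites nearest to Nkx6-1, H4c8, Acsl4 and Sncaip, followed with folds from 15.5 to 29.8.

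The exception at a gene end was a start shared by Psenen, a subunit gene of gamma-secretase, and U2af1l4, a splicing factor gene related to U2AF. It lay on chromosome 7 from 30562857 to 30563694 with folds of 16.3 and 20.9. No CTCF library of either state and no STAG2 library of either state had a peak there, while all 4 STAG1 libraries did. The other gene-end sites of highest rank were at Erap1, Fcgr4, Zbtb8os, Ssr1, Col12a1, Lsg1, Fabp12, Pink1 and Blk. Their folds ran from 8.98 to 19.5, and 8 of the 10 gene-end sites had CTCF in both libraries. Erap1, an aminopeptidase gene of antigen processing, had 18.5 and 15.5, and Col12a1, a collagen gene, had 9.98 and 19.5. Both proliferating STAG2 libraries had a peak at 4 of the 10 gene-end sites, Erap1 among them, and neither had one at 1 of the 10.

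The proliferating libraries were not used to choose the specific sites and gave a reading of them with the same antibodies. STAG2-specific sites were called in 77.7% and 76.0% of cases by the proliferating STAG2 libraries and in 32.2% and 68.5% by the STAG1 libraries. STAG1-specific sites were called in 59.7% and 30.4% by STAG2 and in 80.0% and 75.8% by STAG1. Shared sites were called in 95.4% to 98.9% by each library. The groups did not overlap for either specific class, with differences of 26.5 and -32.9 points, STAG2 minus STAG1 (exact permutation p = 0.333 each).

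These sizes moved with single libraries. The first was 8.37 points without STAG1 proliferating replicate 1 and 44.7 without replicate 2, and 15.7 when the sites were chosen without STAG2 quiescent replicate 2. The second was -18.2 points without STAG2 proliferating replicate 2, and -17.0 and -17.4 points when the sites were chosen without STAG1 quiescent replicate 1 or 2. Specificity in every library was rarer. Of the STAG2-specific sites, 244 (10.1%) were called by both proliferating STAG2 libraries and neither STAG1 library, and 6 were called the reverse way. Of the STAG1-specific sites, 338 (16.2%) kept the same pattern and 13 had the reverse. All 4 proliferating STAG libraries called 551 of the STAG2-specific and 401 of the STAG1-specific sites.

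**Figure D3:**
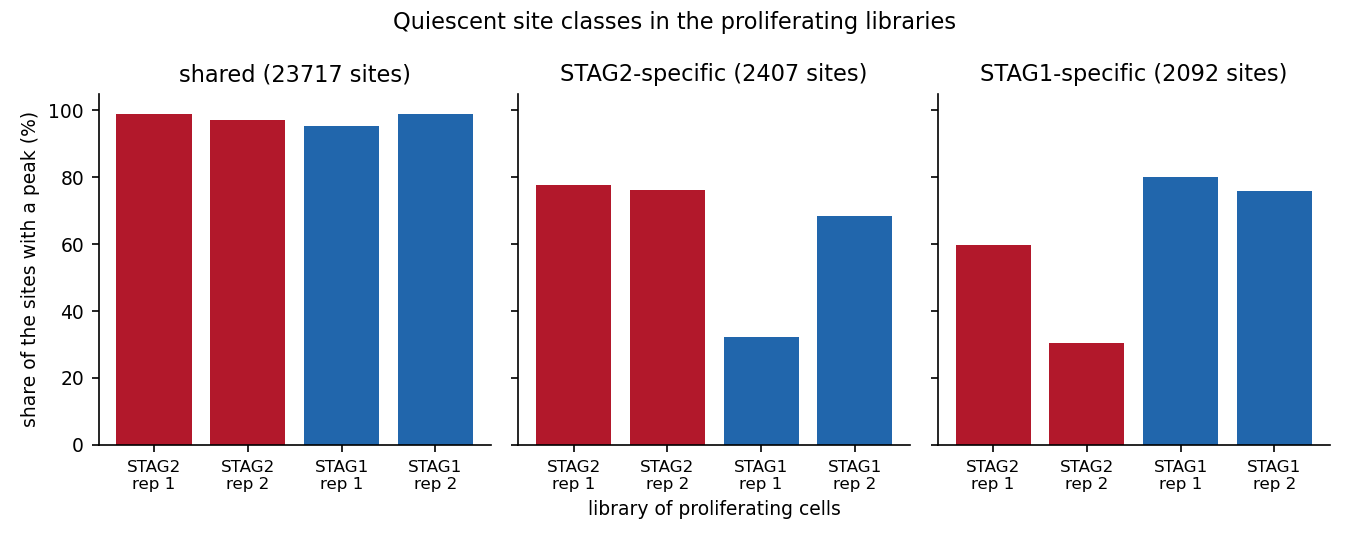
Share of the sites of each quiescent class (vertical axis, %) with a peak in each library of proliferating cells (horizontal axis); red bars are STAG2 and blue bars STAG1 libraries. STAG2-specific sites stand at 77.7% and 76.0% in STAG2 and at 32.2% and 68.5% in STAG1 libraries, and STAG1-specific sites at 59.7% and 30.4% against 80.0% and 75.8%.

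At shared sites the 2 proteins also ranked sites differently. Each library's fold enrichments were ranked over the same 23717 sites, turned into normal scores, and compared with limma. The estimate is STAG2 minus STAG1 in units of the SD of all shared sites. Ranks correlated at 0.854 within STAG2, 0.892 within STAG1 and 0.641 to 0.738 between them (Pearson, across sites, which are not independent replicates). With an adjusted p under 0.05, 253 sites (1.07%) ranked higher for STAG2 and 305 (1.29%) for STAG1. Both STAG2 ranks lay above both STAG1 ranks at 7431 sites (31.3%), and the reverse at 7477 (31.5%). No site passed limma when any 1 of the 4 libraries was left out, where the smallest adjusted p lay between 0.0753 and 0.112. At an unadjusted p under 0.05, 2201 to 3590 sites then ranked higher for STAG2 and 2058 to 4128 for STAG1, against 3561 and 3756 with all libraries.

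Sites ranked higher for STAG2 were mostly at gene ends, and those ranked higher for STAG1 mostly elsewhere. Of the 253 sites, 75.9% were at gene ends and 73.5% at annotated starts, against 11.1% and 3.93% of the 305 and 40.7% and 32.9% of all shared sites. Median distances to a gene end were 296 bp and 11626 bp. The trend ran through 10 equal groups of sites by estimate, from 12.4% at gene ends in the group most towards STAG1 to 73.0% in the group most towards STAG2. The gap of 60.6 points lay between 44.9 and 66.0 when 1 library was left out. CTCF in both libraries went from 89.8% to 77.9% over the same groups, and among sites with CTCF in both, gene ends went from 11.3% to 75.4%. Sites at gene ends were wider, with a median of 1079 bp against 643 bp away from them, and the part of width in these ranks was not tested.

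The median ranks of each library show where the proteins differed. At gene ends the median rank was 55.4 and 48.6 (percentile among shared sites) in the STAG2 replicates and 38.4 and 37.6 in the STAG1 replicates. Away from gene ends it was 45.6 and 51.1 for STAG2 and 59.2 and 59.9 for STAG1. STAG1 thus ranked gene-end sites below others in both replicates, whereas for STAG2 the order differed between replicates. The median estimate was 0.37 at gene ends and -0.23 away from them. With CTCF in both libraries it was 0.37 and -0.28, and without any CTCF 0.30 at gene ends and 0.12 away from them, where the sign was that of gene ends.

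**Figure D4:**
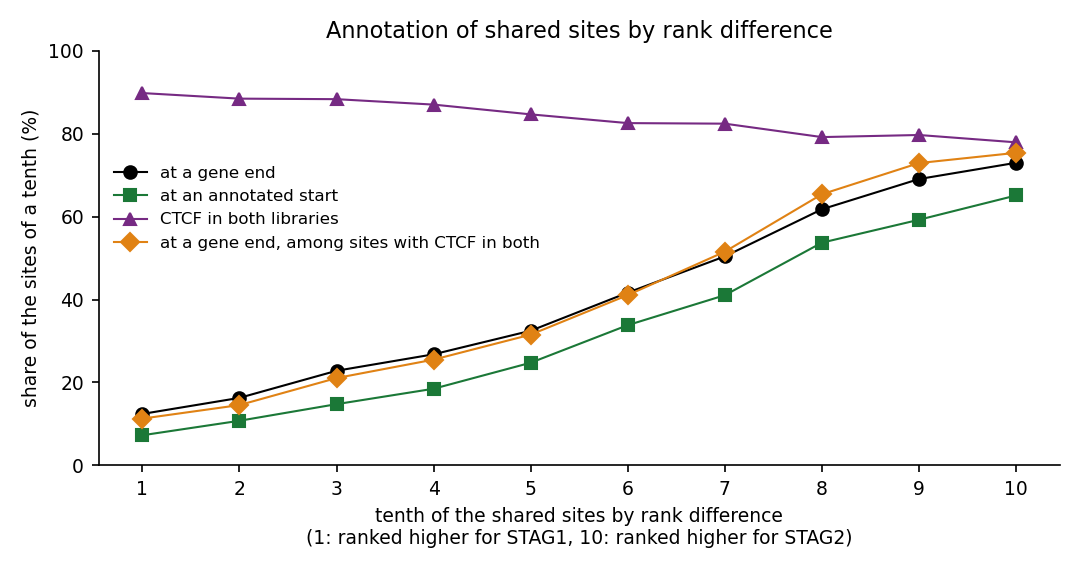
Shared sites in 10 equal groups by rank difference (horizontal axis, 1 towards STAG1 and 10 towards STAG2) and the share of each group (vertical axis, %) with an annotation. Black circles, at a gene end, climb from 12.4% to 73.0%, orange diamonds, the same among sites with CTCF in both libraries, from 11.3% to 75.4%, and purple triangles, CTCF in both libraries, go from 89.8% to 77.9%.

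The gene-end sites that moved most towards STAG2 had STAG2 ranks of at least 90.3, and STAG1 ranks from 0.504 to 54.7. At the end shared by Mettl1, a tRNA methyltransferase gene, and Eef1akmt3, on chromosome 10 from 127040887 to 127042354, the ranks were 97.3 and 95.0 for STAG2 and 3.25 and 0.793 for STAG1, and the folds 55.6 and 39.9 against 4.12 and 3.40 (estimate 3.91 ± 0.28, SE, limma adjusted p = 0.0379). Etv5, an ETS factor gene induced by EGF receptor and MAPK signalling, had ranks of 98.5 and 98.0 against 10.7 and 12.1 at its end on chromosome 16 from 22438199 to 22440847 (estimate 3.32 ± 0.22, limma adjusted p = 0.0379). At Lrfn3 the ranks were 99.98 and 99.9 for STAG2 and 38.4 and 21.8 for STAG1, with folds of 103 and 70.8 against 8.98 and 6.99. Lrfn3 encodes an adhesion protein of synapses. The others were at Pheta1, Abca7 with Cnn2, Qars with Qrich1, Elmo2, Mcrip2, Kctd21 with Usp35, and Zmym3, with estimates from 3.15 to 3.79.

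The gene-end sites that moved most towards STAG1 had STAG1 ranks from 36.8 to 78.1 and STAG2 ranks of at most 14.3. At Nup107, a scaffold gene of the nuclear pore, on chromosome 10 from 117792136 to 117793104, the ranks were 0.405 and 0.888 for STAG2 and 45.5 and 41.3 for STAG1. Its estimate was -2.34 ± 0.23 (limma adjusted p = 0.0395), and it had no CTCF in quiescent cells. Kidins220, Gmeb2, Depdc1b, Lyzl6, Ercc3, a helicase subunit gene of TFIIH, and Tm4sf5 had estimates from -2.27 to -1.95 and CTCF in both libraries. Tbc1d7, a subunit gene of the TSC complex, had -2.25 and Bdnf, a neurotrophin gene, had -1.93, and neither passed (limma adjusted p = 0.0602 and 0.0524).

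At the level of genes, STAG2 without STAG1 was the more frequent pattern. Of 21887 protein-coding genes, 10003 had peaks of all 4 libraries at a gene end. At 644 genes (2.94%) both STAG2 libraries had a peak and no STAG1 library did, and the reverse held at 85 (0.388%). Of the 644 genes 41.3% had no quiescent CTCF peak at a gene end, against 18.8% of the 85 and 5.92% of the genes with both proteins. In proliferating cells the STAG2 replicates had a peak at 77.6% and 82.3% of the 644 genes, and the STAG1 replicates at 26.1% and 82.6%. Of the 85 genes the shares were 70.6% and 57.6% for STAG2 and 50.6% and 80.0% for STAG1. The proteins overlapped in both sets of genes. The 20000 strongest peaks of each list gave 1269 and 166 genes, and leaving out any 1 of the 4 libraries, which asks for fewer calls, gave 795 to 1356 and 147 to 250.

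Genes of the cell cycle that DREAM is known to bind were more often occupied by STAG2 than by STAG1 in each quiescent library. Of 64 listed G2/M genes, STAG2 occupied 78.1% and 73.4% and STAG1 54.7% and 64.1%, and the groups did not overlap. The difference was 16.4 points (exact permutation p = 0.333), against 5.76 points over all protein-coding genes. Over all genes the groups did not overlap either, with 58.4% and 55.6% for STAG2 against 50.7% and 51.9% for STAG1. With the 20000 strongest peaks of each list the G2/M difference was 10.9 points and the groups overlapped (exact permutation p = 0.667). Of 68 G1/S genes STAG2 occupied 91.2% and 88.2% and STAG1 69.1% and 83.8%. This difference was 13.2 points, 5.88 without STAG1 replicate 1 and 20.6 without replicate 2. The value over all genes is an unlike base. It includes 8419 of 21887 genes with no gene-end peak in any quiescent STAG library, against 12 of the 64 G2/M and 6 of the 68 G1/S genes. STAG2 alone was found at 5 of the 64 G2/M genes (7.81%) and at 2 of the 68 G1/S genes (2.94%), the latter equal to the share over all genes. None of either list had STAG1 alone, which was found at 0.388% of all genes, so lists of this size would hold few or none.

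The peaks at these genes were mostly low in the STAG2 lists. E2f2, an activator E2F gene whose promoter is printed above, had folds of 13.8 and 13.8 and a mean percentile of 66.7. Spc24, a kinetochore gene, had 9.98 and 6.98. Racgap1, a cytokinesis gene, had 8.79 and 5.50, and Ccnb2, cyclin B2, had 7.33 and 6.03, both at promoters with the CHR letters shown above. Ect2, which activates RhoA in cytokinesis, had 5.58 and 3.00, Mcm10, a replication initiation gene, 5.11 and 5.94, and Plk1, a mitotic kinase gene, 4.25 and 4.50 with a mean percentile of 4.05. Proliferating STAG1 replicate 2 had a peak at every one of these 7 genes but Mcm10. At 50 shared sites of the G1/S genes 64.0% of the estimates were towards STAG2, and at 36 of the G2/M genes 66.7%, against 73.1% of all shared gene-end sites.

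Ribosomal protein, histone and Hox genes had the same order of the proteins, without overlap between groups, as was also so over all genes. The differences were 14.3, 11.1 and 15.4 points against 5.76 over all genes. The base is again unlike, as only 10, 0 and 4 genes of these lists had no quiescent STAG peak at a gene end. Ribosomal protein genes were occupied at 86.9% and 84.5% by STAG2 and 69.0% and 73.8% by STAG1, with STAG2 alone at 7 of 84 (8.33%), among them Rpl28, Rpl35, Rpl35a, Rps12, Rps29 and Rpsa. Replication-dependent histone genes were at 100% and 96.8% against 84.1% and 90.5%, with STAG2 alone at 2 of 63 (3.17%), H4c2 and H4f16, near the 2.94% over all genes. Hox genes were at 84.6% and 71.8% against 69.2% and 56.4%, with STAG2 alone at 2 of 39 (5.13%), Hoxa7 and Hoxa11. Among developmental transcription factor genes under Polycomb control, Hand1 and Nkx2-2 had STAG2 alone, and among keratin genes Krt4 and Krt6a. Wnt3, Tcf21, S100a4, Cd79a and Nefm were further listed genes with STAG2 alone, from the lists of Wnt and Notch signalling and of fibroblast, immune and neuron markers.

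Clustered protocadherin genes, which encode neuronal adhesion proteins and are arrayed behind CTCF sites, went the other way. STAG1 occupied 36.8% and 38.6% of the 57 genes, and STAG2 15.8% and 15.8%. The 9 genes with STAG1 alone, against the 0.388% of all genes, were of the gamma cluster (Pcdhga1, Pcdhga3, Pcdhga4, Pcdhga6, Pcdhga7, Pcdhgb2, Pcdhgb5, Pcdhgb6 and Pcdhgc5). They share an end, and all but Pcdhgb6 had the same folds of 4.34 and 4.00, so they stand for few sites. These peaks were near the bottom of the STAG1 lists, with a mean percentile of 6.10, or 10.1 at Pcdhgb6. In proliferating cells STAG2 occupied 36.8% and 36.8% of the list and STAG1 17.5% and 38.6%. Olfr9, Olfr544 and Postn, an extracellular matrix gene of fibroblasts, were the other listed genes with STAG1 alone. When the STAG lists were cut to the length of the shortest, 9 of these 12 genes changed their pattern and 2 kept it.

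The lists of EGF receptor and MAPK response (34 genes), of TGF beta and BMP signalling (29) and of cohesin (19) had no gene with 1 protein alone. Over all genes STAG2 alone was found at 2.94% and STAG1 alone at 0.388%, so lists of this size would hold few or none. Other lists, such as those of urothelial differentiation and epithelial junctions, also had none. Each of the 4 libraries occupied 97.1% of the EGF receptor and MAPK response genes and 89.7% of the TGF beta and BMP genes. For cohesin genes and their regulators the shares were 57.9% and 63.2% for either protein. Estimates were above 0, the STAG2 side, at 73.1% of all shared gene-end sites. Some lists lay below this share, such as Hippo and YAP targets at 60.0% and urothelial differentiation at 66.7%. All 11 sites at cohesin genes had estimates above 0, with Stag2 highest at 0.72. Their median estimate was 0.19, below the 0.37 of all shared gene-end sites. Epithelial junction genes had 22 of 23 sites on the STAG2 side, with both STAG2 ranks above both STAG1 ranks at 20 (against 49.4% of all shared gene-end sites) and Ocln, occludin, highest at 1.58. Histone genes had 34 of 35 sites on that side, and basal urothelial genes 14 of 15, with Bcam, a laminin receptor gene, highest at 1.91.

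Of all 9643 shared sites at gene ends, 192 passed limma towards STAG2 and 34 towards STAG1. Few of those at listed genes passed, all of them towards STAG2, the more frequent direction at gene ends. Beside Etv5, these were at Cdkn1c, a CDK inhibitor gene (2.77), at Smad5, a BMP signalling gene (1.74), at the end shared by Rpl7a and Med22 (2.44), and at that of Rplp2 and Pidd1 (1.38). At Cdkn1c the ranks were 92.5 and 91.2 for STAG2 and 9.05 and 8.05 for STAG1. Smad5 was low for both proteins, with ranks of 14.3 and 5.69 against 0.154 and 0.0780. Genes of urothelial differentiation were occupied at 79.4% and 73.5% by STAG2 and 70.6% and 73.5% by STAG1, and PPAR gamma targets at 65.6% and 59.4% against 50% and 62.5%, so neither list separated the proteins. Upk1a, a uroplakin gene, had an estimate of -1.02 and Acaa2, an enzyme gene of fatty acid oxidation, -1.70, both without passing.

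**Figure D5:**
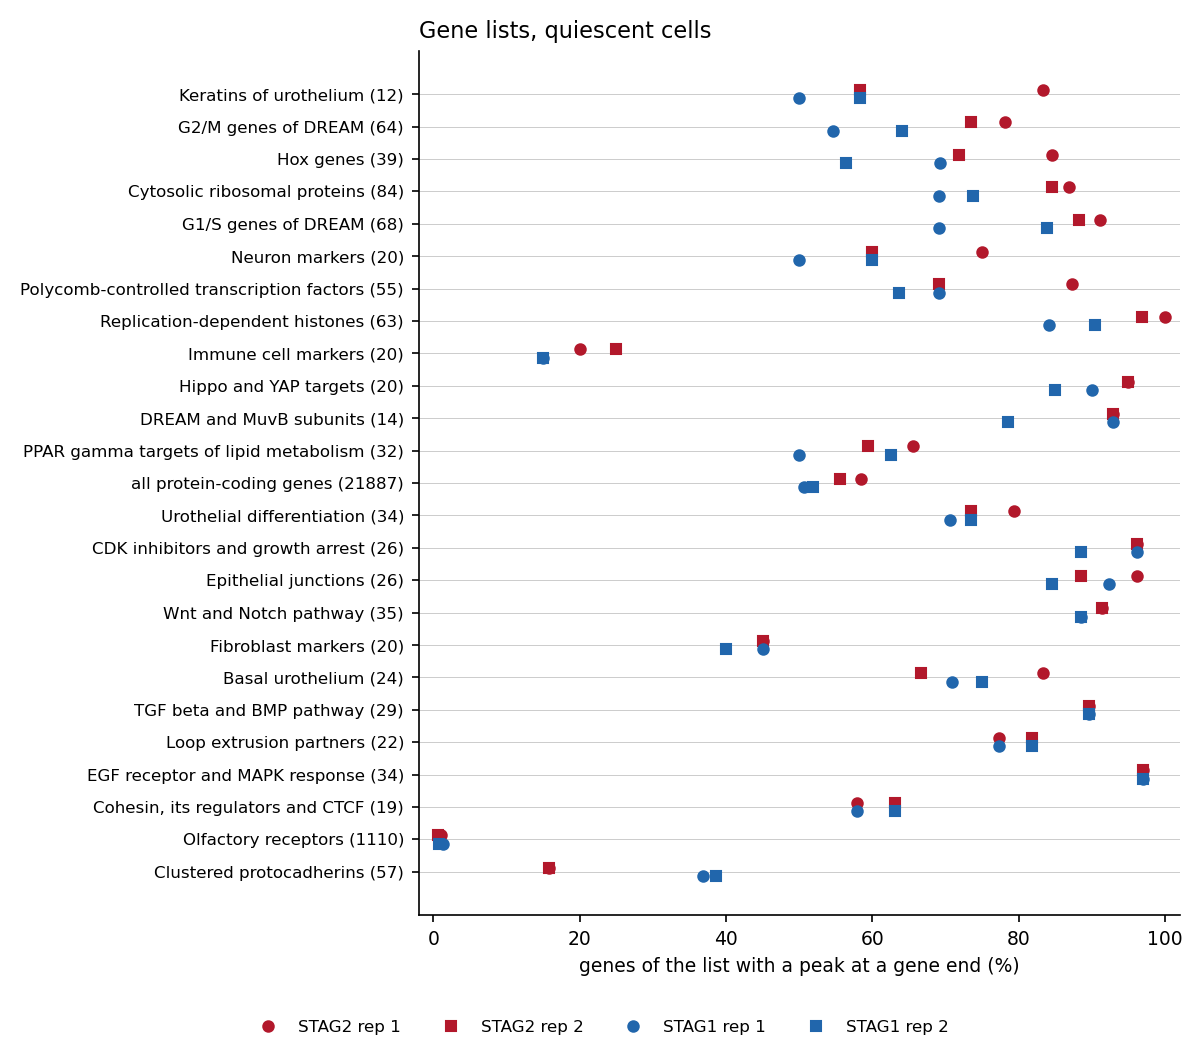
Share of the genes of each list (horizontal axis, %) with a peak at a gene end in each quiescent library; red marks are STAG2 and blue marks STAG1, circles replicate 1 and squares replicate 2, and list sizes stand in brackets. Lists are ordered by the STAG2 minus STAG1 difference, with the protocadherins lowest at 15.8% for STAG2 against 36.8% and 38.6% for STAG1.

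The promoter letters followed the classes only in part. Windows at an annotated start were 21263 in all, of which 8946 met a shared, 658 a STAG2-specific and 27 a STAG1-specific site. The core of the CTCF motif, on either strand, were in 3.49% of the shared, 1.98% of the STAG2-specific and 2.34% of all windows, and in 2 of the 27 STAG1-specific ones, at Scn2a and Calhm5. The E2F letters TTTCGCGC, TTTGGCGC, TTCCCGCC or TTCGCGCC, which can overlap each other and GGGCGG, were in 6.81%, 6.38% and 4.30% of the shared, STAG2-specific and all windows, and in none of the 27. The CHR letters TTTGAA or TTCGAA were in 11.2%, 14.7% and 17.6%, and the SP and KLF letters GGGCGG in 73.0%, 63.2% and 46.2%. Median GC content was 64.0% at shared, 60.5% at STAG2-specific and 52.0% at STAG1-specific starts, against 56.3% over all windows. A match is only a run of letters in the window.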

How the data were processed

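Chromatin immunoprecipitation and sequencing gave 12 peak lists, 2 in each of 6 groups, of which 4 are compared here, and the input sample was not analysed here. Per the submitters' processing notes, bcl2fastq, BWA, Picard, MACS2 and HOMER were used with mm10, with no versions named there. Each library has its own list, in which the authors deposited every peak's fold enrichment (a ratio over input), its −log10 p and −log10 q, and a display score, which was not used. Peak names mark libraries and input as normalised, without saying how. Folds were used only to rank peaks within a list.

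Sites, CTCF matches and gene ends were computed with Python 3.11.15, pandas 2.3.3 and numpy 2.4.6, on 21887 protein-coding genes of RefSeq GRCm38.p6. Ranks of shared sites were compared with limma 3.58.1 in R 4.3.3, with Benjamini-Hochberg adjustment over all 23717 sites, after the script was tested on simulated data. Shares were compared by exact permutation over libraries, two-sided. The sites named are the 10 of highest mean percentile in each class, the 10 highest of each specific class at gene ends, and the 10 largest rank differences in each direction at gene ends. From 17 lists of the account of the series, written again by hand, and 7 further lists, the genes with 1 protein alone are named. A few genes that these rules select are not reported here. Genes singled out beside these rules were chosen after their values were seen. The comparison and the lists were chosen with earlier results of these data known. Alternatives changed overlap, list length, peak threshold, gene window, transformation and libraries.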

Additional observations from a re-analysis of the deposited data

How the results depend on the processing

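No result reversed, and 117 of 154 values of the comparisons under the alternatives were labelled the same. For a difference in shares this label asks only for the same sign, whatever its size or p-value. For a count of sites or genes it asks for a value within 1.5 times. The sizes of some share differences moved much more, as given above and below. The counts of shared sites with a rank difference moved by over 1.5 times under the settings given next. Quantile-normalized log2 folds gave 1414 sites higher for STAG2 and 1704 higher for STAG1, with a gap in gene-end share between the outer groups of rank difference of 63.7 points. Peaks with a −log10 q of at least 5 gave 431 and 590 sites, and a difference of 1 bp between summits between and within proteins. With the replicate block, which joins libraries of the same number, 0 and 0 sites passed limma (3914 and 4024 at an unadjusted p under 0.05), and shares kept their differences with an exact p of 0.5. The numbers were not taken as pairs. Lists of 20000 peaks gave 1269 genes with STAG2 alone and 166 with STAG1 alone, and starts alone gave 38 with STAG1 alone.

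Leaving out 1 library gave 3941 to 7390 STAG2 sites and 2952 to 6108 STAG1 sites, and 795 to 1356 and 147 to 250 genes. Shared sites passing limma were 0 to 0 for each protein, and that gap was 44.9 to 66.0 points. The other differences, STAG2 minus STAG1, were 8.37 to 44.7 points and -47.5 to -17.0 points for STAG2-specific and STAG1-specific sites in proliferating cells. Peaks without the other protein gave -29.5 to -15.6 points with CTCF and 13.1 to 18.0 at gene ends, and all peaks -6.84 to -2.81 and 2.14 to 3.87. G1/S genes gave 5.88 to 20.6 points and G2/M genes 11.7 to 21.1. Leaving out each CTCF or proliferating library was chosen after seeing the data. The cause of these changes was not tested, beyond that fewer libraries make a site easier to call specific.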
